A study of Homo sapiens with 3 samples.

Results

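Calcium pumps, phospholipase C eta enzymes and inositol trisphosphate (IP3) receptors were followed in the RNA-seq libraries of H128 cells after knockdown of ESRRG. The group held 10 genes, matched by symbol among the 17448 genes of the deposited table: the endoplasmic reticulum pumps ATP2A1, ATP2A2 and ATP2A3, the plasma membrane pumps ATP2B1, ATP2B2 and ATP2B4, the phospholipases PLCH1 and PLCH2, and the IP3 receptors ITPR1 and ITPR3. The genes were chosen partly by measured values of these same libraries, because ATP2A3 and PLCH2 were among the largest falls with both siRNAs. Their fold changes are therefore given as a description, with no test.

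The human SCLC line H128 is an established cell line with no engineered allele named in the labels, grown in RPMI1640 with serum. Cells were transfected for 48 h with a control siRNA (siCont) or with 1 of 2 siRNAs against ESRRG, the gene of the nuclear receptor ERRγ, and total RNA was sequenced. There were 3 libraries, siCont, siERRG2 and siERRG3, with 1 library per condition. Both comparisons share the siCont library, so any oddity of that library enters both, and no difference has a replicate check. The labels do not tie siERRG2 or siERRG3 to a named siRNA sequence, and 1 cell line with 1 control siRNA is the whole model.

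The estimated counts, rounded to whole numbers, summed to between 19861937 and 20016780 per library. ESRRG itself had 806 counts with siCont, 211 with siERRG2 and 230 with siERRG3. All 9 neuroendocrine markers on the list were detected, with SYP at 109, 106 and 77.3 FPKM and CHGA at 80.9, 96.9 and 70.0 FPKM in siCont, siERRG2 and siERRG3. The summed level of these 9 markers was 1358, 1234 and 1563 FPKM, of which UCHL1 alone made up 729, 696 and 1006. Of the 9, 0 were at least 1.2-fold lower or higher in both. Over all genes with at least 10 counts in 1 or more libraries, 7.88% were lower and 7.26% higher in both. Single libraries did shift, with 2 markers lower (22.2%) and 1 higher (11.1%) in each. Over the same set of all genes, 19.2% were lower and 16.4% higher in siERRG2, and 25.1% and 23.2% in siERRG3. In siERRG2, INSM1 stood at 0.504 and CHGB at 0.747 times the siCont level and SCG2 at 2.36 times. In siERRG3, SYP stood at 0.704, CHGA at 0.824 and UCHL1 at 1.37 times. The 8 markers of immune, endothelial and fibroblast cells summed to 6.77, 8.47 and 5.87 FPKM, and VWF and DCN were below 10 counts in each library. The fibroblast markers were not level, as COL1A1 had 181, 127 and 132 counts and LUM had 83, 183 and 58. The immune marker CD68 had 22, 22 and 50 counts, CD3E had 47, 42 and 32, PTPRC had 21, 25 and 29, and the endothelial PECAM1 had 27, 20 and 25. The part of these shifts in the results below was not tested.

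Calcium signalling rests on a steep gradient. SERCA pumps (the ATP2A genes) move calcium from the cytosol into the endoplasmic reticulum, and PMCA pumps (the ATP2B genes) expel it across the plasma membrane. Phospholipase C cleaves a membrane phosphoinositide into diacylglycerol and IP3, and IP3 opens the IP3 receptors, which let stored calcium back into the cytosol. The eta enzymes of the phospholipase C family are themselves highly sensitive to calcium and are best known from neurons and neuroendocrine cells, the kind of cell that SCLC resembles.

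Genes of a family are close in sequence, so it matters whether short reads could tell them apart. The MANE Select transcripts of the 10 genes in GENCODE 44, lifted to GRCh37, were compared. Over the aligned coding bases, identity was 70.3% between ATP2A2 and ATP2A3, 69.7% between ATP2B1 and ATP2B2, 63.4% between PLCH1 and PLCH2 and 68.5% between ITPR1 and ITPR3. No run of 50 bases, the read length of the sequencing system that the methods name, was shared between the transcripts of any 2 of the 10 genes. Of the 50-base windows, 8.45% in ATP2A1 occur also in its antisense gene ATP2A1-AS1, 10.2% in ITPR3 in the neighbouring UQCC2, and 0.751% in ITPR1 in another annotated gene. The other 7 genes had none.

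ATP2A3, which encodes SERCA3, had 141 counts with siCont, 22 with siERRG2 and 45 with siERRG3. It is listed as gene 489 and spans chromosome 17 from 3868167 to 3967247 in the GRCh38 coordinates of the table. Both ESRRG siRNA libraries were low, and siERRG2 was the lower of them. On the log2 CPM scale (counts scaled by library size and TMM factor, prior count of 2) siERRG2 lay at -2.59 and siERRG3 at -1.63 relative to siCont. In bulk RNA, fewer cells carrying a message and less of it per cell cannot be told apart. As ratios of scaled counts these were 0.154 and 0.314, with 95% exact binomial (Clopper-Pearson) intervals of 0.0937 to 0.243 and 0.219 to 0.442. These intervals cover counting error only and compare libraries, not conditions. Ranked on the smaller of the falls, ATP2A3 came 2nd, after ESRRG, of 11369 genes averaging 50 counts or more. ATP2A3 was chosen for large falls in these comparisons, so a high rank follows from that choice.

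ATP2A2, which encodes the housekeeping pump SERCA2, carried nearly all of the SERCA message. It had 11187 counts with siCont, 12253 with siERRG2 and 8246 with siERRG3, so siERRG2 lay slightly above siCont and siERRG3 below it. Relative to siCont, siERRG2 stood at 1.08 (interval 1.06 to 1.11) and siERRG3 at 0.725 (0.704 to 0.746). ATP2A1, the SERCA1 pump of fast skeletal muscle, had 22, 30 and 32 counts. Its ratios of 1.35 and 1.43 had intervals from 0.752 to 2.45 and from 0.806 to 2.58, so no difference was detectable at this depth.

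Per length, SERCA message summed to 102 FPKM in siCont, 109 in siERRG2 and 73.5 in siERRG3, where FPKM is the authors' expression value scaled for transcript length and library size. ATP2A2 made up 98.2%, 99.4% and 98.7% of it. ATP2A3 made up 1.48% with siCont, 0.230% with siERRG2 and 0.639% with siERRG3. The gene with the steepest change thus held a small share of its family, and the family sum followed ATP2A2.

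**Figure D1:**
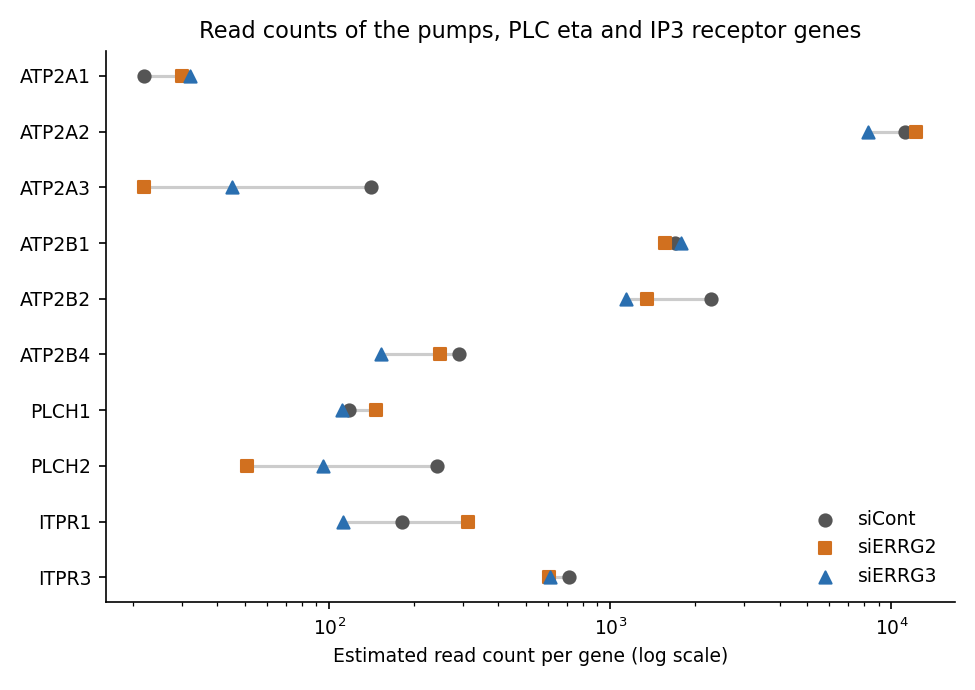
Estimated read count of each gene (x axis, log scale) in siCont (circles), siERRG2 (squares) and siERRG3 (triangles), 1 library each. ATP2A3, ATP2B2 and PLCH2 have both ESRRG siRNA libraries to the left of siCont, while ITPR1 has them on opposite sides, at 311 and 112 counts around 181.

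Of the 3 PMCA pumps in the group, ATP2B2 had the lowest ratio to siCont in both comparisons, though in siERRG3 its interval overlapped that of ATP2B4. ATP2B2 encodes PMCA2, a fast pump best known from neurons and hair cells, and had 2287 counts with siCont, 1354 with siERRG2 and 1134 with siERRG3. It is gene 491, on chromosome 3 from 10324023 to 10739208. Its log2 fold changes were -0.77 (siERRG2) and -1.03 (siERRG3), and the ratios of 0.585 and 0.488 had narrow intervals of 0.547 to 0.626 and 0.454 to 0.524. With over 1000 counts in each library, ATP2B2 was the most deeply counted of the 3 genes of the group that were lower in both.

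ATP2B1, which encodes the widely expressed PMCA1, had 1700, 1569 and 1782 counts, close together in the 3 libraries. Relative to siCont it stood at 0.912 (0.851 to 0.978) with siERRG2 and at 1.03 (0.964 to 1.10) with siERRG3. ATP2B4, which encodes PMCA4, had 289 counts with siCont, 248 with siERRG2 and 153 with siERRG3. Here siERRG3 stood apart, with a ratio of 0.521 (0.425 to 0.635), while the interval in siERRG2, 0.713 to 1.01, held 1.

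ATP2B3, the PMCA gene outside the group of 10, encodes the neuronal PMCA3 and had 145, 82 and 96 counts. Its ratio lay between 0.421 and 0.738 in siERRG2 and between 0.498 and 0.848 in siERRG3. Summed over the 4 genes, PMCA message was 32.1 FPKM with siCont, 23.9 with siERRG2 and 23.5 with siERRG3. ATP2B2 was the leading PMCA message in siCont, at 16.3 FPKM against 13.1 for ATP2B1. That order was turned in both ESRRG siRNA libraries, with ATP2B1 at 12.2 and ATP2B2 at 9.63 FPKM in siERRG2, and 13.8 and 8.07 in siERRG3. The share of ATP2B2 in the family went from 50.6% to 40.4% and 34.3%. In siCont and in both ESRRG siRNA libraries, the Poisson counting intervals of these 2 neighbours did not overlap.

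PLCH2 had 242 counts with siCont, 51 with siERRG2 and 95 with siERRG3. The gene, 9651, lies on chromosome 1 from 2411814 to 2506443 and encodes phospholipase C eta 2. As with ATP2A3, both ESRRG siRNA libraries were low and siERRG2 was the lower. Its log2 fold changes were -2.22 (siERRG2) and -1.35 (siERRG3), with ratios of 0.208 (0.151 to 0.283) and 0.386 (0.301 to 0.491). It ranked 4th of the same 11369 genes on the smaller of its falls, a rank that again follows from the choice of the gene.

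PLCH1, the paralog on chromosome 3, encodes phospholipase C eta 1 and had 118, 147 and 111 counts. Both intervals held 1, from 0.960 to 1.58 in siERRG2 and from 0.707 to 1.21 in siERRG3. In siCont, PLCH2 was at 2.33 FPKM and PLCH1 at 0.94, a ratio of 2.48. In siERRG2 the ratio of PLCH2 to PLCH1 was 0.421, and in siERRG3 it was 1.08, where the counting intervals of the 2 genes overlapped. The sum over both genes was 3.27 FPKM with siCont, 1.62 with siERRG2 and 1.79 with siERRG3.

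**Figure D2:**
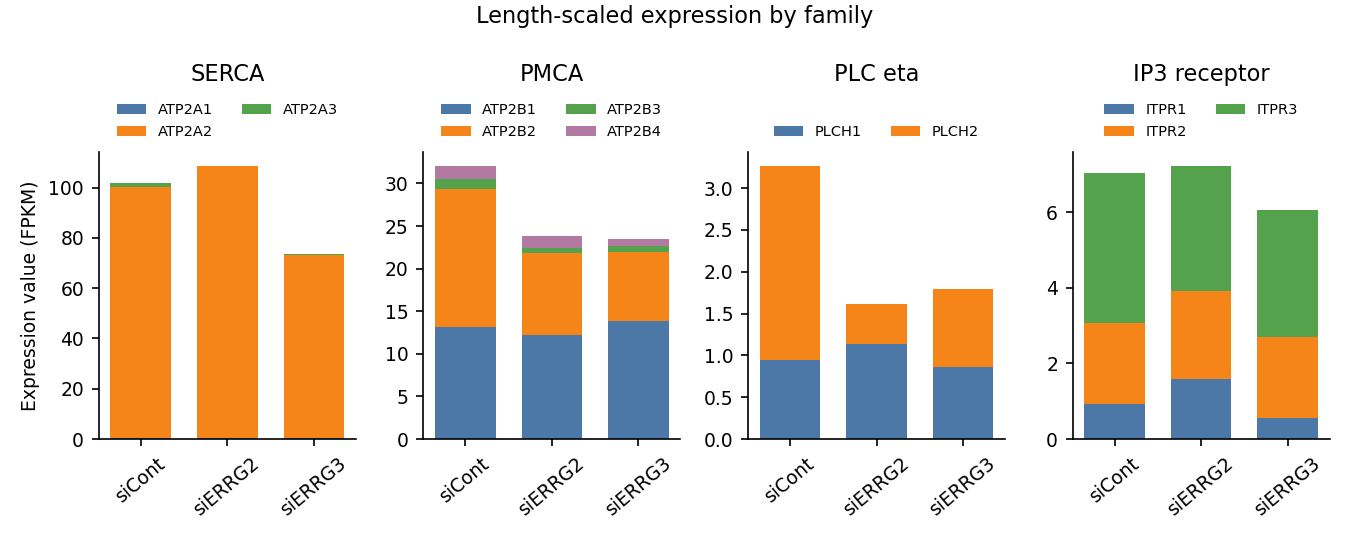
Expression value (FPKM, y axis from 0) of each family in the 3 libraries, stacked by gene, with no error bars since each condition has 1 library. The PMCA bar is 32.1 FPKM in siCont and 23.9 and 23.5 in siERRG2 and siERRG3, and the PLCH2 part of the PLC eta bar shrinks from 2.33 to 0.48 and 0.93.

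ITPR1 lay on opposite sides of siCont. This gene, 3708 on chromosome 3 from 4490038 to 4887293, encodes the IP3 receptor that dominates in neurons, and had 181 counts with siCont, 311 with siERRG2 and 112 with siERRG3. Relative to siCont, siERRG2 stood at 1.70 (1.41 to 2.05) and siERRG3 at 0.608 (0.476 to 0.774). Measured directly between the ESRRG siRNA libraries, siERRG3 had 0.358 times the level of siERRG2, with an interval of 0.286 to 0.446.

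ITPR3, the IP3 receptor prominent in epithelial and secretory cells, had 712 counts with siCont, 607 with siERRG2 and 608 with siERRG3. The ESRRG siRNA libraries were nearly equal, with log2 fold changes of -0.25 and -0.25. Their intervals lay below 1, from 0.755 to 0.941 and from 0.752 to 0.937, while both fold changes lay just inside the 1.2-fold line. ITPR2, outside the group of 10, had 545, 593 and 547 counts and intervals that held 1. ITPR3 was the most abundant IP3 receptor in each library, at 56.4%, 46.0% and 55.3% of the summed FPKM, and ITPR1 went from 13.1% to 21.8% in siERRG2 and to 9.24% in siERRG3. Ryanodine receptors, the other calcium release channels of the reticulum, had at most 6 counts in any library for RYR2 and RYR3.

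**Figure D3:**
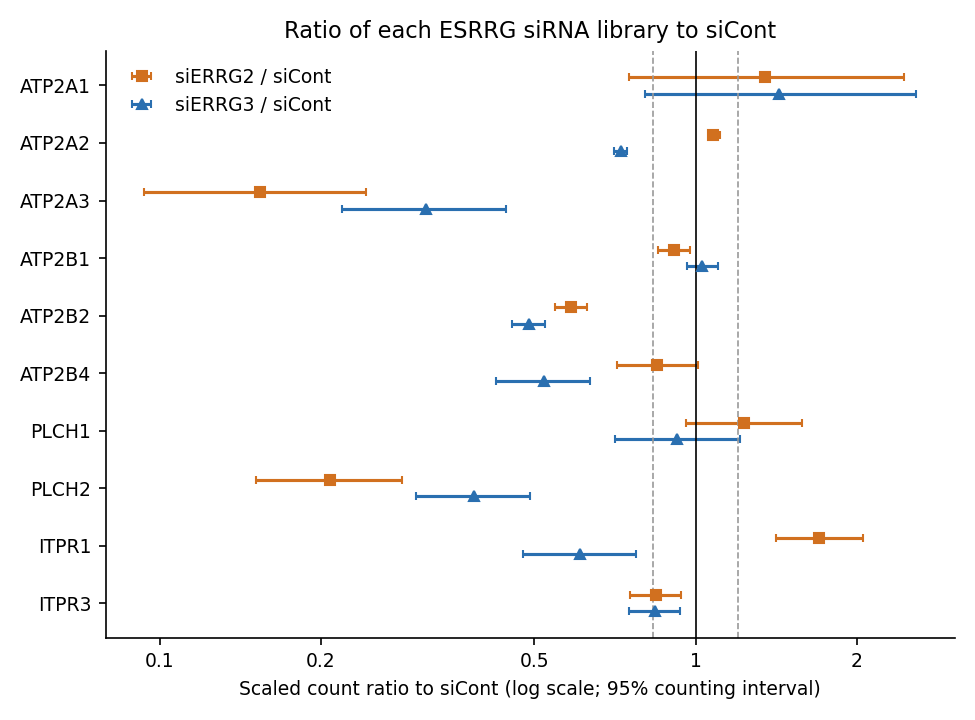
Scaled count ratio of siERRG2 (squares) and siERRG3 (triangles) to siCont, on a log x axis, with 95% Clopper-Pearson bars for counting error only; the solid line marks 1 and the dashed lines 1.2-fold. ATP2A3, ATP2B2, PLCH2 and ITPR3 have both bars below 1, and the ITPR1 bars lie on either side of it.

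A threshold of 1.2-fold was applied, and all 10 genes passed the low-count filter of 10 counts in at least 1 library. At that threshold 3 of the 10 were lower in siERRG2 (ATP2A3, ATP2B2 and PLCH2), where 19.2% of the 14031 genes that passed were lower. Likewise 3 were higher in siERRG2 (ATP2A1, PLCH1 and ITPR1), against 16.4% of all genes. In siERRG3, 6 were lower (ATP2A2, ATP2A3, ATP2B2, ATP2B4, PLCH2 and ITPR1), against 25.1%, and 1 was higher (ATP2A1), against 23.2%. In both comparisons, which share siCont, 3 were lower and 1 was higher, where 7.88% and 7.26% of all genes were, and 1 passed in opposite directions, where 6.05% did. The counting interval lay below 1 in both for 4 of the 10 (the 3 lower genes and ITPR3) and for 10.5% of all genes, and above 1 in both for 0 of the 10 and 9.12% of all genes. Since the genes were picked with these contrasts known, nothing is read from the counts.

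Set side by side, ITPR1 was among the genes of the group whose counting interval of siERRG3 over siERRG2 left out 1. The share of all genes for which it did was not counted, so nothing is read from how many did. ATP2A3 was 2.03 times as high in siERRG3 as in siERRG2 (interval 1.2 to 3.56) and PLCH2 was 1.85 times as high (1.31 to 2.66). The order was the opposite for ATP2B2, at 0.833 (0.769 to 0.902), ATP2B4, at 0.614 (0.498 to 0.754), and ATP2A2, at 0.669 (0.651 to 0.688). For ESRRG the same ratio was 1.08 (0.896 to 1.31), so the residual ESRRG message did not differ beyond counting error. ITPR3, at 0.996 (0.889 to 1.12), and ATP2A1, at 1.06 (0.624 to 1.81), did not differ either. PLCH1, at 0.751 (0.582 to 0.968), was lower in siERRG3, and ATP2B1, at 1.13 (1.06 to 1.21), slightly higher.

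Levels spanned a wide range in siCont. ATP2A2, at 99.9 FPKM, stood above 95.5% of the genes in the table, followed by ATP2B2, ATP2B1, ITPR3 at 3.97 and PLCH2 at 2.33 FPKM. ATP2B4 at 1.64 and ATP2A3 at 1.5 FPKM could not be ordered within counting error, nor could PLCH1 at 0.94 and ITPR1 at 0.92. ATP2A1 was last, at 0.31 FPKM. In siERRG2 the last place fell to ATP2A3, at 0.25 FPKM (0.157 to 0.379), whose interval overlapped that of ATP2A1 at 0.42 (0.283 to 0.600). In siERRG3 they were at 0.47 and 0.46.

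The genes nearest to ATP2A3 and PLCH2 were sought over the pair of log2 fold changes, among the genes averaging 50 counts or more, by Euclidean distance over the 2 comparisons. The gene nearest to ATP2A3 was PLCH2, at a distance of 0.462, followed by ESRRG at 0.680 and LDB3 at 0.751. Nearest to PLCH2 were LDB3, at 0.344, ATP2A3, and CNTN2 at 0.512. LDB3, a LIM-domain protein of the muscle Z-disc, had 959, 216 and 481 counts, and CNTN2, a neural adhesion molecule, had 1428, 416 and 689. ATP2A3 and PLCH2 were chosen for large falls in these same 2 comparisons, so their closeness to each other and to ESRRG follows in part from that choice. A pattern over 3 libraries holds little information, and the distance says nothing of shared control.

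**Figure D4:**
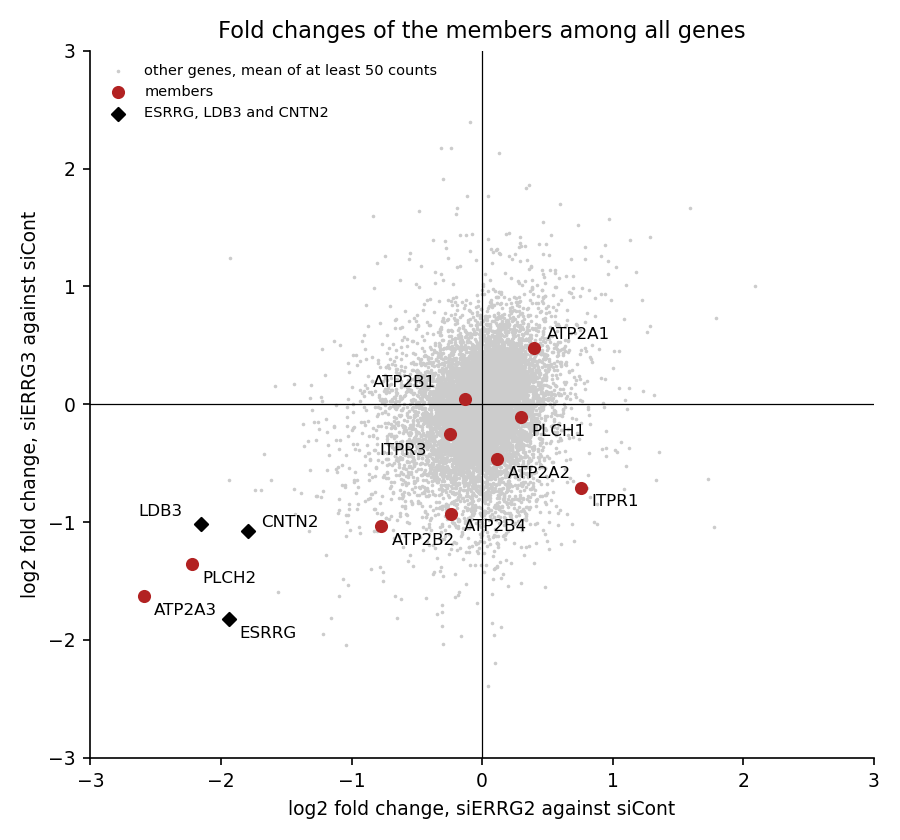
Log2 fold change in siERRG2 (x axis) and siERRG3 (y axis), both against the same siCont library, for genes averaging 50 counts or more (grey), the 10 genes (red) and ESRRG, LDB3 and CNTN2 (black diamonds). ATP2A3 (-2.59, -1.63) and PLCH2 (-2.22, -1.35) lie at the edge of the cloud beside ESRRG, and ITPR1 (0.76, -0.71) lies in the opposite-direction quadrant. Of all genes averaging 50 counts or more, 2 lie outside the plotted range.

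Since ERRγ binds an extended half-site, the letters TNAAGGTCA and the core AAGGTCA were searched on both strands of the RefSeq promoter windows of GRCh38.p14, from 250 bases before to 50 after each annotated start; every match to the longer motif is also a match to the core. Windows were found for 9 of the 10 genes, 17 in all, and ATP2A3 was not among them. Neither motif occurred in any of the 17 windows. Over all windows of this length, 0.951% held the longer motif and 3.92% the core, so few matches would be counted in 17 windows of any kind. These letters were absent from these windows only, and no binding was measured in this data set.

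Genes that overlap ATP2A3 and PLCH2 in the coordinates of the table were looked at as well, because the way reads on either strand were counted is not given in the sources used here. CAMKK1, which overlaps the extent of ATP2A3, was counted at 691, 475 and 813 in the order siCont, siERRG2, siERRG3, and CYB5D2 had 445, 400 and 359. P2RX1 had at most 2 counts. PEX10, next to PLCH2, had 850, 703 and 667 counts and MORN1 had 31, 34 and 38. None had ratios as low as ATP2A3 or PLCH2. The counts of 8 of the 10 genes were whole numbers within 0.005 in all libraries. Those of PLCH2 (242.18, 51.03 and 95.04) and ATP2A1 (21.51, 29.62 and 32.45) were not, and how the fractions arose is not given in the sources used here.

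The wider calcium machinery was described with lists drawn from general knowledge of the pathway, with earlier results of these libraries known. Without the 10 genes, the lists held 146 genes in the table, of which 119 passed the low-count filter. In siERRG2, 32 of the 119 (26.9%) were at least 1.2-fold lower and 23 (19.3%) higher, beside 19.2% and 16.4% of all genes. In siERRG3, 29 (24.4%) were lower and 19 (16.0%) higher, beside 25.1% and 23.2% of all genes. The median log2 fold change was 0.00 and -0.04, against 0.00 and 0.00 over all genes. In both comparisons 15 were lower (12.6%) and 7 higher (5.88%), beside 7.88% and 7.26% of all genes. Among genes averaging 50 counts or more, 10.6% of the list and 6.24% of all genes were lower in both, and 2.88% and 4.50% were higher.

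Of 11 phospholipase C genes outside the eta class that passed, 5 (45.5%) were lower and 3 (27.3%) higher in siERRG2, against 19.2% and 16.4% of all genes. In siERRG3, 3 (27.3%) were lower and 4 (36.4%) higher, against 25.1% and 23.2%. PLCB1, activated by Gq proteins, had 1050, 1407 and 527 counts, above siCont in siERRG2 and below it in siERRG3, the same opposite pattern as ITPR1. PLCG1, the enzyme downstream of receptor tyrosine kinases, had 2540, 1438 and 2253 counts, lower mainly in siERRG2. PLCE1, the Ras-binding enzyme, was higher in both, with 81, 114 and 157 counts. PLCB4, with 609, 595 and 601 counts, was level.

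Proteins that bind or regulate the pumps and receptors were mostly within 1.2-fold in at least 1 of the comparisons, as were most of all genes. Over all genes, 7.88% were lower in both, 7.26% higher in both and 6.05% past the threshold in opposite directions. NPTN, neuroplastin, a subunit of the PMCA pumps, had 1160, 958 and 814 counts and ratio intervals of 0.749 to 0.890 and 0.630 to 0.755. It was the only one of the 6 pump partners lower in both (16.7%, against 7.88% of all genes). BSG, the related subunit basigin, had 14037, 14231 and 13755 counts. The SERCA inhibitors PLN and SLN of muscle had at most 3 counts. MRLN, myoregulin, on the same list, was detected at 58, 45 and 81 counts, and both of its ratio intervals to siCont held 1. Of the 13 IP3 receptor regulators that passed, 1 was lower in both and 1 higher in both. Each was 7.69% of the list, near the 7.88% and 7.26% of all genes. The higher one was ITPRIPL2, at 27, 48 and 48 counts, below 50 in each library. ATP2C1, the calcium pump of the Golgi, was level at 1944, 2091 and 2008 counts.

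Of 15 calcium-binding proteins of the reticulum that passed, 5 (33.3%) were lower and 1 (6.67%) higher in siERRG2, against 19.2% and 16.4% of all genes. In siERRG3, 7 (46.7%) were lower and 3 (20%) higher, against 25.1% and 23.2%. The median log2 fold change of the list was -0.07 and -0.22, against 0.00 and 0.00 over all genes. CALR, calreticulin, the main calcium buffer of the lumen, had 25734, 12749 and 21686 counts, so the siERRG2 library held 0.479 to 0.5 of the siCont level and siERRG3 0.814 to 0.844 of it. HSPA5, the chaperone BiP, had 15312, 11421 and 12181 counts, and CALU, calumenin, had 6067, 4734 and 4597, each lower in both. CANX, calnexin, was level at 14798, 14657 and 14623 counts. The summed level of the list was 2182, 1696 and 1899 FPKM in siCont, siERRG2 and siERRG3, of which CALR alone made up 679, 336 and 567.

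Store-operated entry, which refills the reticulum, had 9 genes that passed. ORAI1, the pore of the entry channel, was higher in both, with 215, 274 and 286 counts, and STIMATE, a partner of STIM1, was lower in both, with 474, 392 and 384. The sensor STIM2 was higher in siERRG2 only, at 1352, 1777 and 1367 counts. Of the 11 mitochondrial uptake genes, 0 were past 1.2-fold in both. Over all genes 7.88% were lower and 7.26% higher in both, so few would be counted among 11 genes of any kind. SLC8A2, a sodium-calcium exchanger, was lower in both with 188, 138 and 142 counts.

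Downstream of calcium and IP3, 22 effector genes passed. RCAN2, a calcineurin inhibitor, was higher in both with 577, 1088 and 813 counts, while its relative RCAN3 was lower in both with 874, 714 and 594. CAMKK2, a calmodulin-dependent kinase, was lower in both with 1042, 866 and 549 counts. Among 23 genes of inositol phosphate and phosphoinositide turnover, PI4K2B, a phosphatidylinositol kinase, was lower in both with 755, 587 and 573 counts, and ITPKA, which phosphorylates IP3, differed in direction with 114, 76 and 202.

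**Figure D5:**
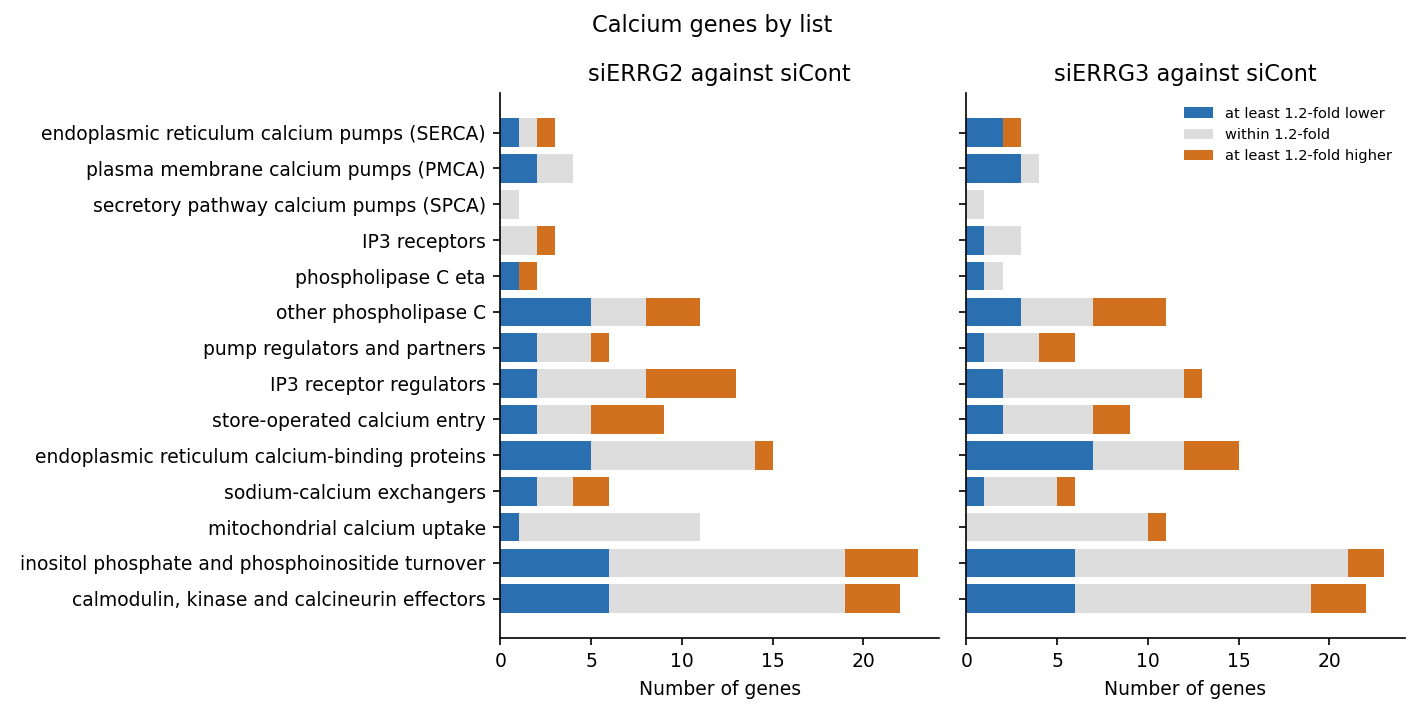
Number of genes on each calcium list (x axis, genes that passed the low-count filter) that were at least 1.2-fold lower (blue), within 1.2-fold (grey) or at least 1.2-fold higher (orange) than siCont, in siERRG2 (left) and siERRG3 (right). Of the 15 reticulum calcium-binding genes, 5 and 7 were lower, and of the 11 mitochondrial uptake genes, 1 and 0 were. Over all genes that passed, 19.2% and 25.1% were lower.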

How the data were processed

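RNA-seq was done on 3 H128 libraries, with alignment to GRCh37/hg19 by BWA and Bowtie 2 in the methods, while the submitters' processing notes name TopHat2, HTSeq and DESeq2 with the builds hg19, hg38 and GRCh38. The coordinates in the table are GRCh38. The authors deposited estimated counts per gene, not normalized, and an expression value without a named unit that behaves as FPKM. The median count to value ratio of genes over 500 counts tracked the library totals within 0.01, while single genes departed further. The authors' own log2 ratios, p-values and adjusted values were not used.

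Counts were rounded and scaled with TMM in edgeR 4.0.16 (R 4.3.3). Genes with at least 10 counts in 1 or more libraries were kept. Log2 CPM used a prior count of 2. With 1 library per condition no model or test was fitted, and ratios carry 95% Clopper-Pearson intervals (SciPy 1.17.1) for counting error only. The computation was tested on simulated data. The members and lists were chosen with earlier results of these data known. Named genes were the 10, ESRRG, their families, overlapping genes, list genes past 1.2-fold in both with a mean of at least 50 counts, and the 3 nearest patterns; others were named after their values were seen. Alternatives were total-count CPM, DESeq2 1.42.0 size factors, FPKM with a pseudocount of 0.1, a prior count of 0.5, other filters and other thresholds. Some sequences and 1 list gene are not reported here.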

Additional observations from a re-analysis of the deposited data

Results flagged for a closer look

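ITPR1 passed the 1.2-fold threshold in opposite directions in the ESRRG siRNA libraries, and the log2 difference of siERRG3 to siERRG2 was -1.46. The difference between the siRNAs was not tested, since each has 1 library.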

How the results depend on the processing

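No paired analysis was possible because each condition had 1 library, and no replicate could be left out. The log2 fold changes of the 10 genes stayed within their counting intervals under the 4 scaling and prior alternatives, in 80 of 80 values. The largest move was that of ATP2A3 in siERRG2, from -2.59 to -2.19 with FPKM and to -2.67 with a prior count of 0.5. With a mean of at least 50 counts required, 0 of the 10 genes were higher in siERRG3 or in both. At 1.5-fold, 1 was higher in siERRG2 and 0 in siERRG3 and in both. At 2-fold, 0 were higher in siERRG2, in siERRG3 or in both, and 3 were lower in siERRG3. Over all calcium lists, 10 genes included, the 8 genes higher in both became 15 without a filter, 3 with a mean of at least 50 counts and 0 at 2-fold, and the 18 lower in both became 2 at 2-fold. The other 49 counts stayed within 1.5 times. The share of all genes moves with the filter too. With the main scaling, 4.50% of all genes averaging 50 counts or more were higher in both, against 7.26% with the main filter. Lower in both were 6.24%, against 7.88%. The shares of all genes under the other settings were not counted, so nothing about the calcium genes is read from these moves. Shares of family message by reads rather than by FPKM differed beyond counting error in 16 of 30 values, as lengths differ between the genes. Depth limits ATP2A1 most, with 22 to 32 counts.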

Other observations

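The table's own annotation places 197 genes in the KEGG calcium signalling pathway, a set looked up after the files were seen. Without the 8 of the 10 genes it holds, 134 genes passed the low-count filter. In siERRG2, 35 (26.1%) were at least 1.2-fold lower than siCont and 23 (17.2%) higher, and in siERRG3 41 (30.6%) were lower and 33 (24.6%) higher. Over all genes that passed these shares were 19.2% and 16.4% in siERRG2 and 25.1% and 23.2% in siERRG3. The shares of higher genes lay near those of all genes and the shares of lower genes somewhat above. With 1 library per condition and no test, nothing is read from either. Of the 105 genes that passed in the phosphatidylinositol signalling pathway, 26 (24.8%) were lower and 15 (14.3%) higher in siERRG2, and 33 (31.4%) were lower and 11 (10.5%) higher in siERRG3, to be set beside the same shares of all genes. The median log2 fold change of that set was -0.03 and -0.12. Unlike the calcium pathway, it was counted with any of the 10 genes that it holds left in.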
